A study of Mus musculus with 8 samples.

Results

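Pf4, Ppbp, Gp1ba, Gp1bb, Gp9, Gp6 and Treml1 are genes that megakaryocytes and platelets use and that few other cells express at a high level. They were taken from the RNA-seq table by name, by matching Ensembl gene identifiers to symbols, and are 7 of the 50462 identifiers listed. All 7 were detected in each of the 8 libraries of mouse knee cartilage, and all 7 entered the test. The libraries came from the medial knee cartilage caps of individual wild-type C57Bl/6J male mice. The 4 naive mice had no surgery and were sampled at day 0, at 11 weeks of age. The 4 DMM mice were sampled at 17 weeks of age, 42 days after the left medial meniscus was destabilised by cutting the ligament that holds it to the tibia, under isoflurane anaesthesia and with buprenorphine as analgesic. Destabilisation of the medial meniscus (DMM) is a surgical model of post-traumatic osteoarthritis. Sham-operated mice were not analysed here. The surgery, its drugs and the difference in age therefore cannot be told apart.

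Megakaryocytes are the large cells of the bone marrow that shed platelets into the blood, and platelets keep RNA made by the megakaryocyte. Platelets store chemokines in alpha granules, bind von Willebrand factor through the GPIb-IX-V complex and bind collagen through glycoprotein VI, and these contacts start adhesion and granule release. Articular cartilage itself has no blood vessels, whereas the bone below it holds marrow. The libraries are bulk tissue, and counts are relative to the rest of each library. Fewer cells of a type, less RNA per cell and a different mix of tissue in the sample therefore cannot be told apart here.

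In all, 6 of the 7 genes fell in DMM cartilage and the remaining gene, Gp1bb, did not pass the test. The fall was between 1.73-fold for Gp6 and 2.22-fold for Ppbp, and in each of these 6 genes the highest DMM library lay below the lowest naive library. All 7 log2 fold changes were negative. Calls were made with DESeq2 (Wald test) and needed both a Benjamini-Hochberg adjusted p, over all genes tested, of at most 0.05 and a difference of at least 1.5-fold. By this rule 5.92% of the 17760 genes tested were called lower (1052) and 7.75% higher (1377). With the total count of each library as its size factor 489 were lower and 2030 higher, and 6 of the 7 genes were again called lower. Groups that did not overlap, with DMM lower, were seen for 10.3% of all genes tested. By the quasi-likelihood test of edgeR 6 of the 7 were lower, against 4.4% of all genes it tested. The median log2 fold change of the 7 genes was -1.04, compared with -0.02 over all genes tested. The 7 genes were chosen with earlier results of these data known, so these comparisons are descriptions.

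The stretch just before each gene's start is where megakaryocyte transcription factors of the GATA, ETS and RUNX families can act. The letters of these stretches were compared as a description, and regulation by these factors was not tested. The windows are the 250 bases before the annotated start, from RefSeq on GRCm38.p6, and all 7 genes were matched. The 3 windows that hold a GATA match are shown with that of Pf4, which holds none of the motifs searched. They lie at chr11:70638872-70639121 on the plus strand (Gp1ba), chr16:18622404-18622653 on the minus strand (Gp1bb), chr7:4397745-4397994 on the minus strand (Gp6) and chr5:90772185-90772434 on the plus strand (Pf4). Each is written 5′ to 3′ on the gene's strand, ending at the base before the start, and capitals mark the GATA and ETS matches on either strand.
Gp1ba: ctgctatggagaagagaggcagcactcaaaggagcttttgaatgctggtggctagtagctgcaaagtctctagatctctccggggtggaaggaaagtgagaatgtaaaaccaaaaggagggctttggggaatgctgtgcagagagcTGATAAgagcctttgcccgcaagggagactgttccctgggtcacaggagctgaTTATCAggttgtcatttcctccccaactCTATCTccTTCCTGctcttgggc
Gp1bb: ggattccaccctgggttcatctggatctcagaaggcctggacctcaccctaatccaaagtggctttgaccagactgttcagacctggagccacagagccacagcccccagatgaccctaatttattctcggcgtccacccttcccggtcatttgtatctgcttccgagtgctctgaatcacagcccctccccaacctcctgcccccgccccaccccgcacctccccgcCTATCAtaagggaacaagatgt
Gp6: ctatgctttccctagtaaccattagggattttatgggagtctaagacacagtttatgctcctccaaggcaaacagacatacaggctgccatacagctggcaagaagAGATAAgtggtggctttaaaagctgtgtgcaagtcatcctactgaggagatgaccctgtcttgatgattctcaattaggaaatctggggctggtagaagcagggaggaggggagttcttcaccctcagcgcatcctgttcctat
Pf4: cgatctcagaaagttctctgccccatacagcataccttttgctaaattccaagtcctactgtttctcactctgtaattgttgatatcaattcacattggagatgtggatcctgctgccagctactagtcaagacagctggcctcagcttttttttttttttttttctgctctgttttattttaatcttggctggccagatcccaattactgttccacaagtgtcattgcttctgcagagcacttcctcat

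The GATA motif was searched on both strands as AGATAA, with the variants AGATAG at its last letter, TGATAA at its opening letter and TGATAG at both. It was found in 3 of the 7 windows, that of Gp1bb, which was not called, included, and in 26.5% of the 32851 promoter windows of the same length in the annotation. Gp1ba held 3 matches, with first bases 104, 51 and 23 bases before the start, the match of Gp1bb began 22 bases before it and that of Gp6 144 bases before it. The ETS motif, searched on both strands as CAGGAA or in its other form as CCGGAA, was found in Ppbp, Gp1ba and Treml1 and in 35.1% of all windows. The RUNX motif, searched on both strands as TGTGGT or in its other form as TGCGGT, was found in Gp9 alone among the 7 and in 18.6% of all windows. The TATA motif, searched as TATAAA on the gene's strand, was found in Ppbp alone among the 7, beginning 30 and 8 bases before the start, and in 7.6% of all windows. No matches of different motifs overlapped in these windows. No motif of the 4 searched was found in all 7 windows.

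Pf4 and Ppbp encode the chemokines platelet factor 4 (CXCL4) and pro-platelet basic protein (CXCL7), which are stored in alpha granules and released on activation. They are neighbours on the plus strand of chromosome 5 of GRCm38, Ppbp at chr5:90768518-90770063 and Pf4 at chr5:90772435-90773383, with 2371 bases between them. Pf4 had normalised counts (counts divided by a size factor for each library) of 1882.8, 1885.1, 1334.6 and 1282.4 in naive replicates 1 to 4 and of 609.5, 854.6, 941.8 and 710.3 in DMM replicates 1 to 4. Naive replicates 1 and 2 were the highest libraries for Pf4, and every DMM library lay below every naive library. Its mean fell from 1596.2 ± 332.9 to 779.0 ± 147.9 (SD, n = 4 each), a log2 fold change of -1.04 with a standard error of 0.18 (DESeq2 adjusted p = 8.82e-07).

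Ppbp had the largest change and the smallest adjusted p of the 7 genes. Its normalised counts were 1975.1, 2365.4, 1658.9 and 1648.6 in the naive and 758.8, 954.6, 893.2 and 832.1 in the DMM libraries, in the order of the replicates. The DMM libraries lay close together, with a coefficient of variation of 9.75%, whereas naive replicate 2 stood above the other naive libraries. With total count scaling naive replicates 1 and 2 were close, at 1972.0 and 2006.5. The mean fell from 1912.0 ± 338.1 to 859.7 ± 83.8 (SD, n = 4 each), 2.22-fold, or -1.15 on the log2 scale with a standard error of 0.14 (DESeq2 adjusted p = 6.51e-13). The ratio of Pf4 to Ppbp counts was 0.833 ± 0.0809 in naive libraries and 0.902 ± 0.109 after DMM (SD, n = 4 each), and the ranges overlapped (exact permutation test, two-sided p = 0.343).

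Gp1ba, Gp1bb and Gp9 encode the parts of the GPIb-IX complex, the receptor by which platelets hold on to von Willebrand factor. GPIb alpha carries the binding site, GPIb beta is joined to it, and GPIX is needed for the complex to reach the surface. The genes lie apart, Gp1ba at chr11:70639122-70642036 on the plus strand, Gp1bb at chr16:18620317-18622403 on the minus strand and Gp9 at chr6:87778072-87779768 on the plus strand. Gp1ba had normalised counts of 547.9, 671.8, 437.7 and 437.7 in naive and 233.9, 298.8, 300.5 and 217.5 in DMM libraries. The groups did not overlap, and the mean fell from 523.8 ± 111.5 to 262.7 ± 43.2 (SD, n = 4 each). The log2 fold change of Gp1ba was -1.0 with a standard error of 0.18 (DESeq2 adjusted p = 2.76e-06). Gp9 had the lowest group means of the 7 genes in normalised counts, with 155.7, 180.9, 117.7 and 128.1 in naive and 70.5, 79.5, 84.8 and 46.0 in DMM libraries. Here too every DMM library lay below every naive library, with DMM replicate 4 the lowest. Its mean fell from 145.6 ± 28.5 to 70.2 ± 17.2 (SD, n = 4 each), a log2 fold change of -1.05 with a standard error of 0.23 (DESeq2 adjusted p = 0.000154).

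Gp1bb was the gene of the complex that was not called. Its normalised counts were 198.7, 319.3, 109.2 and 94.1 in naive and 90.4, 161.2, 84.8 and 46.9 in DMM libraries, so DMM replicate 2 lay above naive replicates 3 and 4. The spread was wide in both groups, with a coefficient of variation of 57.4% in naive and 49.8% in DMM libraries, against 13.6% to 21.3% and 9.75% to 24.5% for the other genes. The means were 180.3 ± 103.5 and 95.8 ± 47.7 (SD, n = 4 each), and the log2 fold change was -0.91 with a standard error of 0.40 (DESeq2 adjusted p = 0.0846, unadjusted p = 0.0226). When each of the 8 libraries was left out in turn, Gp1bb was called in 3 fits. These were the fits without naive replicate 3 (log2 fold change -1.09), naive replicate 4 (-1.13) and DMM replicate 2 (-1.28). Without naive replicate 2, its highest library, the value was -0.49 and the adjusted p 0.423.

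The reads of Gp1bb are hard to assign. The gene overlaps Sept5, a septin gene, and Gm49601 on the same strand, and 91.5% of the 31-base words of its transcripts also occur in transcripts of another gene, mostly Sept5 (89.7%). Of the other genes, Gp6 shared 1.4% of its words and the remaining 5 genes shared 0.0%. Sept5 itself had 736.3 ± 83.0 normalised counts (SD, n = 4) in naive libraries and 638.7 ± 76.3 (SD, n = 4) after DMM, and its log2 fold change was -0.21 (DESeq2 adjusted p = 0.294). Gm49601 had between 131.0 and 174.6 in naive and between 34.4 and 177.8 in DMM libraries, and its lowest library was DMM replicate 2, the highest DMM library of Gp1bb. In naive replicate 2, the highest library of Gp1bb, Gm49601 had 146.3, within its naive range. Sept5 had 808.9 there, its own highest value. How the estimate divided reads between these genes was not tested, and the value of Gp1bb is uncertain for this reason.

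Gp6 encodes glycoprotein VI, the platelet receptor for collagen, which signals through the Fc receptor gamma chain. It lies at chr7:4363965-4397744 on the minus strand, with 2 annotated microRNA genes inside it on the same strand. Its normalised counts were 388.7, 470.9, 372.5 and 347.0 in naive and 184.9, 268.7, 250.3 and 206.7 in DMM libraries. The groups did not overlap, although this was the smallest change of the 7 genes. The mean fell from 394.8 ± 53.6 to 227.7 ± 38.6 (SD, n = 4 each), 1.73-fold, or -0.79 on the log2 scale with a standard error of 0.16 (DESeq2 adjusted p = 3.69e-05). Fcer1g, the gene of the gamma chain, which other myeloid cells also use, had 1052.8 ± 130.0 and 711.0 ± 94.9 normalised counts (SD, n = 4 each), and its log2 fold change of -0.57 was under the fold threshold (DESeq2 adjusted p = 0.00063).

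Treml1 encodes TLT-1, a receptor kept in alpha granules that comes to the surface of activated platelets and binds fibrinogen. It lies at chr17:48359916-48367176 on the plus strand. Its normalised counts were 233.9, 278.0, 198.0 and 197.3 in naive and 83.8, 130.1, 118.5 and 97.5 in DMM libraries. The groups did not overlap, with naive replicate 2 the highest and DMM replicate 1 the lowest library. The mean fell from 226.8 ± 38.2 to 107.5 ± 20.8 (SD, n = 4 each), a log2 fold change of -1.08 with a standard error of 0.19 (DESeq2 adjusted p = 1.68e-06).

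**Figure D1:**
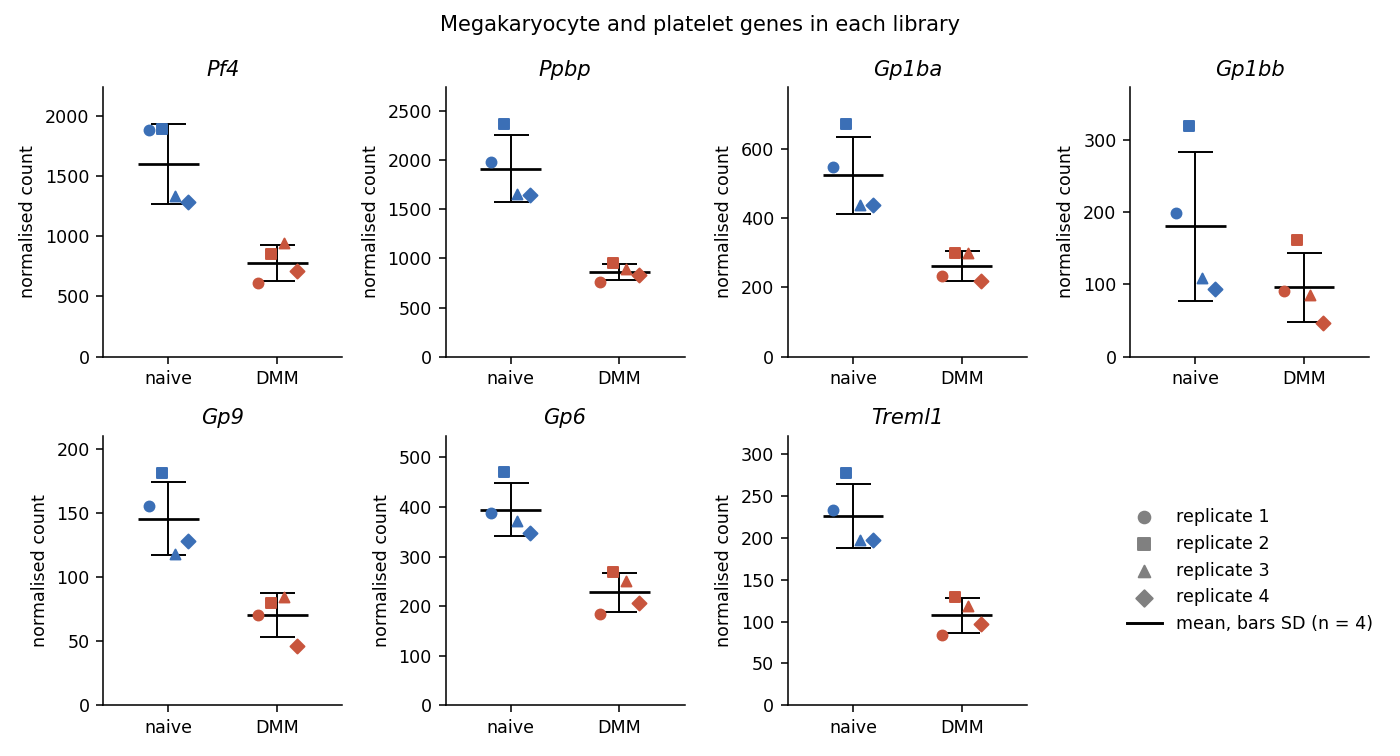
Normalised count (y axis, from 0) of each of the 7 genes in the 4 naive and 4 DMM libraries, with 1 symbol per replicate number and black lines for the mean and SD (n = 4). Groups are separate for 6 genes, and for Gp1bb the highest DMM library (161.2) lies above the lower pair of naive libraries (109.2 and 94.1).

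The libraries kept a similar order from gene to gene. Naive replicate 2 was the highest library for all 7 genes with the size factors used, and for 5 of them with total count scaling, where naive replicate 1 was the highest for Pf4 and Gp9. Among DMM libraries the highest was replicate 2 or 3 and the lowest replicate 1 or 4 for all 7. Naive replicate 2 also had the fewest genes with 10 or more counts, 16770 against 18245 to 19271 in the other libraries. Without this library 6 of the 7 genes were still called, and the summed normalised counts of the 7 genes in DMM were 0.52 of those in naive, compared with 0.48 with all libraries. Pairs of the 7 genes were correlated on log2 of CPM (counts scaled to the library total) plus 0.5, after the group means were removed. Pearson correlations over the 8 libraries ran from 0.52 (Ppbp and Gp9) to 0.97 (Gp6 and Treml1). These values describe libraries that share depth and scaling for all genes.

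Levels can be compared between the genes only per length of transcript, so the normalised counts were divided by the length of the longest annotated transcript in kilobases. On this scale the chemokines stood far above the receptors. In naive libraries Pf4 had 2715 ± 566 and Ppbp 1765 ± 312 normalised counts per kilobase (SD, n = 4 each). The receptors followed with 193 ± 41.2 for Gp1ba, 184 ± 30.9 for Treml1, 165 ± 32.3 for Gp9, 86.5 ± 49.6 for Gp1bb and 66.9 ± 9.09 for Gp6. Neighbours in this order overlapped in range except for Ppbp and Gp1ba. The order of the means was the same in DMM libraries, where Pf4 had 1325 ± 252, Ppbp 794 ± 77.4 and Gp6 38.6 ± 6.54 normalised counts per kilobase, and there the ranges of Pf4 and Ppbp were also apart.

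**Figure D2:**
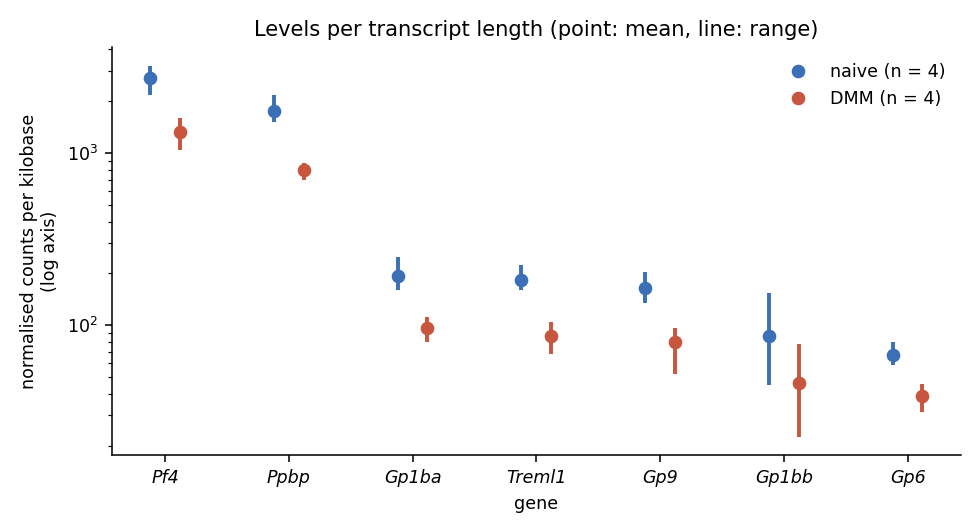
Normalised counts per kilobase of the longest transcript (log axis) for the 7 genes in order of the naive mean, with points for group means and lines from the lowest to the highest of 4 libraries. Pf4 and Ppbp stand above the 5 receptor genes in both groups, and the order of the means does not change.

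Whether any of the 7 genes changed relative to another was compared by the ratio of their counts within each library, which does not depend on the scaling between libraries. Of 21 pairs, 2 had a two-sided exact permutation p under 0.05 and both involved Gp6. The ratio of Ppbp to Gp6 was 4.83 ± 0.287 in naive libraries and 3.81 ± 0.293 after DMM (SD, n = 4 each; exact permutation p = 0.0286). The ratio of Gp6 to Treml1 was 1.75 ± 0.097 and 2.13 ± 0.0593 (SD, n = 4 each; exact permutation p = 0.0286). The groups did not overlap for either ratio, and in both the counts of Gp6 fell by less than those of its partner. With 70 assignments of 4 against 4 libraries this is the smallest p the design allows, and adjusted over the 21 pairs it was 0.30, so no ratio passed. Among the 15 pairs without Gp1bb, no mean log2 ratio changed by more than 0.34.

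The wider set of platelet genes was described by 4 lists of 56 genes in all. DESeq2 called 19 of these lower, while DESeq2 and edgeR both called 0 higher. Of all genes tested, 5.92% were called lower by that rule. At an unadjusted p under 0.05, 41 of the 56 were lower, against 17% of all genes tested, and 3 were higher. On adjusted p without the fold threshold 37 were lower, against 11.2% of all genes tested, and 2 were higher. edgeR called 17 of the 56 lower, against its share of 4.4%. The lists were chosen with earlier results of these data known, so these counts are descriptions and not independent support. Of the 16 adhesion and activation receptors 7 were called lower, and the median log2 fold change of the list was -0.57. Itga2b, the alpha chain of the platelet fibrinogen receptor, fell from 2142.2 ± 500.5 to 1048.6 ± 129.0 normalised counts (SD, n = 4 each), which is -1.03 ± 0.17 (SE) in log2 fold change (DESeq2 adjusted p = 1.5e-07). Its beta chain Itgb3, which osteoclasts and other cells also use, had 4680.1 ± 775.8 and 3189.7 ± 101.0 (SD, n = 4 each). Its log2 fold change was -0.55 (DESeq2 adjusted p = 0.000224), under the fold threshold, and it was called lower without naive replicate 3 or 4, at -0.62 in both fits. Gp5, for glycoprotein V, which joins the GPIb-IX complex, fell by 0.91 on the log2 scale. Clec1b, the podoplanin receptor CLEC-2, fell by 1.0 on that scale. The thrombin receptor genes F2rl2 and F2rl3 fell by 0.97 and 0.93, and Cd226, an adhesion receptor of platelets and lymphocytes, fell by 0.84. F2rl3, with 58.6 ± 15.1 and 31.1 ± 9.4 normalised counts (SD, n = 4 each), kept its call in 3 of 8 fits with a library left out. It was not called without naive replicate 1 or 2 or without DMM replicate 1, 3 or 4, with log2 fold changes between -0.91 and -0.79. Cd9, a tetraspanin of many cell types and the other abundant receptor gene outside the calls, had a change of 0.22 on the log2 scale (DESeq2 adjusted p = 0.249).

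Of the 14 granule, coagulation and proplatelet genes 4 were called lower, against 5.92% of all genes tested, and the list median was -0.49. Groups did not overlap, with DMM lower, for 7 of the 14, against 10.3% of all genes tested. Tubb1, the beta-1 tubulin of the platelet marginal band, fell from 1060.3 ± 207.9 to 452.1 ± 83.1 normalised counts (SD, n = 4 each), which is -1.23 ± 0.18 (SE) in log2 fold change (DESeq2 adjusted p = 9.42e-10). Vwf, the gene of von Willebrand factor, which endothelial cells also make, fell by 0.72 on the log2 scale. The call of Vwf was lost without naive replicate 2, where the value was -0.53. Plek, the gene of the protein kinase C substrate pleckstrin, fell by 0.83. Srgn, which encodes the granule proteoglycan serglycin of many blood cells, fell by 0.61, and its call was lost without naive replicate 1 or 2 or DMM replicate 1 or 2, with values between -0.57 and -0.50. The 2 most abundant genes of this list outside the calls were Thbs1, for the matrix glycoprotein thrombospondin 1, and Serpine2, for a serine protease inhibitor. Thbs1 had 6854.1 ± 630.8 and 4647.7 ± 608.7 normalised counts (SD, n = 4 each) and a change of -0.56 on the log2 scale (DESeq2 adjusted p = 9.03e-05), under the fold threshold, and was called without naive replicate 3 or 4 or DMM replicate 3, with values between -0.65 and -0.59. Serpine2 had a change of 0.33 on the log2 scale (DESeq2 adjusted p = 0.07).

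Of the 14 intracellular signalling genes 2 were called lower, against 5.92% of all genes tested, and the list median was -0.44. At an unadjusted p under 0.05, 12 of the 14 were lower, against 17% of all genes tested. Groups did not overlap, with DMM lower, for 9 of the 14, against 10.3% of all genes tested. Fermt3, the gene of the integrin activator kindlin-3, fell from 2936.0 ± 527.8 to 1722.7 ± 192.0 normalised counts (SD, n = 4 each), or by 0.77 on the log2 scale. Alox12, the platelet-type lipoxygenase gene, fell from 1132.7 ± 122.5 to 644.9 ± 105.4 (SD, n = 4 each), or by 0.81. Tln1, the gene of the integrin-binding protein talin, had a change of -0.35 on the log2 scale (DESeq2 adjusted p = 0.0332), under the fold threshold, and Syk, the kinase downstream of glycoprotein VI and many immune receptors, had one of -0.09 (DESeq2 adjusted p = 0.808). Every gene of this list had a negative log2 fold change, with -0.81 the largest in size.

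Of the 12 megakaryocyte transcription factor genes 6 were called lower, against 5.92% of all genes tested, and the list median was -0.55. Groups did not overlap, with DMM lower, for 5 of the 12, against 10.3% of all genes tested. Gata1, the master regulator of red cells and megakaryocytes, fell from 441.3 ± 115.1 to 230.3 ± 47.0 normalised counts (SD, n = 4 each), or by 0.94 on the log2 scale with a standard error of 0.21 (DESeq2 adjusted p = 0.000187). Nfe2, needed for platelet release, fell by 0.81, Tal1, a stem and erythroid cell factor, by 0.89, and Lyl1, its close relative, by 0.74. Zfpm1, the partner of GATA1 known as FOG1, fell by 0.60, and its call was lost without naive replicate 1 or 2 or DMM replicate 1, 2 or 4, with values between -0.63 and -0.41. Gfi1b, which encodes a transcriptional repressor used by the red cell and megakaryocyte lineages, fell by 0.84. Its call was lost without naive replicate 1 or 2 or DMM replicate 1 or 4, with values between -0.73 and -0.65. Runx1 and Mef2c, which many other cell types use, had positive log2 fold changes of 0.34 and 0.54 (DESeq2 adjusted p = 0.00183 and 0.00137), both under the fold threshold. Mef2c was called higher without naive replicate 4 or DMM replicate 1 or 2, with values between 0.59 and 0.60.

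**Figure D3:**
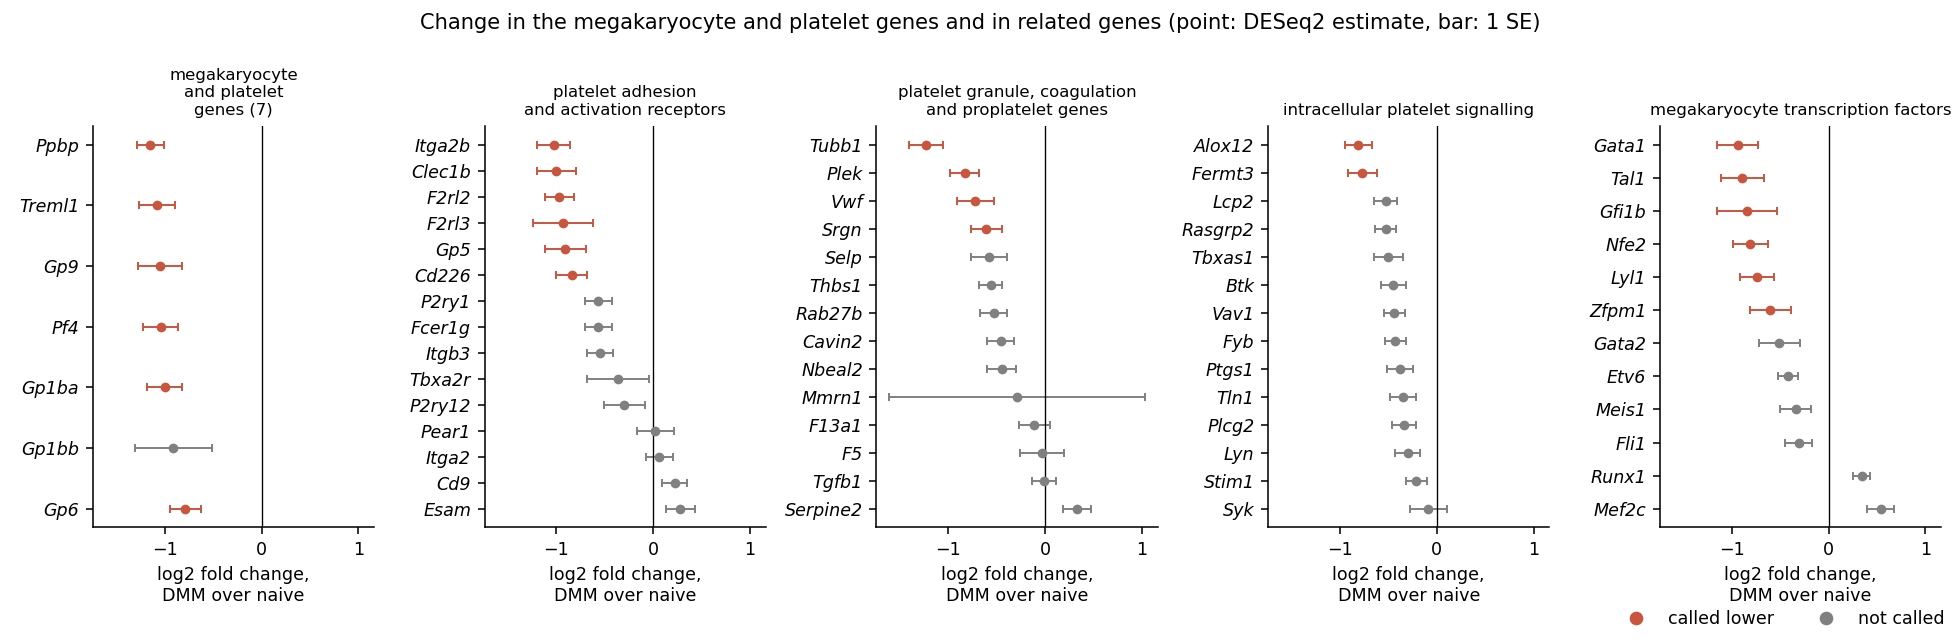
Log2 fold change of DMM over naive (x axis) from DESeq2 for the 7 genes and 55 of the 56 related genes in 4 lists, with bars of 1 standard error and red for genes called lower. The called genes lie between -1.23 (Tubb1) and -0.60 (Zfpm1), and 6 of the 7 genes and 18 of the 55 related genes plotted are red.

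The libraries were labelled as cartilage, and genes of chondrocytes and of marrow cells were both present. All 10 chondrocyte markers were detected, and 5 of them were called higher, against 7.75% of all genes tested. Their summed level was 5887 to 10397 CPM (counts scaled to the total of each library) in naive and 9961 to 14995 in DMM libraries. The 7 megakaryocyte and platelet genes together held 377, 367, 294 and 287 CPM in naive replicates 1 to 4 and 151, 205, 196 and 165 in DMM replicates 1 to 4. Thus 331 ± 47.4 CPM in naive stood against 179 ± 25.5 in DMM libraries (SD, n = 4 each), without overlap.

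Markers of red cells and neutrophils moved in the same direction as the 7 genes. The counts of markers given here are of genes called lower, as were 5.92% of all genes tested. Of 12 erythroid markers 10 fell, with a list median of -0.96 on the log2 scale and a summed level of 11243 to 18652 CPM in naive and 6257 to 13121 in DMM libraries. Hba-a2, an alpha globin gene that can share reads with its near-identical copy Hba-a1, was the most abundant of them and fell from 79625.4 ± 25467.5 to 36763.5 ± 15442.3 normalised counts (SD, n = 4 each; DESeq2 adjusted p = 0.0202). The groups overlapped for Hba-a2, and its call was lost without naive replicate 1 or 2 or DMM replicate 1, 2 or 4, with log2 fold changes between -1.05 and -0.94. Of 12 neutrophil lineage markers 11 fell, with a median of -0.86 and a summed level of 9089 to 12660 CPM in naive and 4280 to 9002 in DMM libraries. S100a9, their most abundant gene, fell from 39110.4 ± 8224.6 to 21781.8 ± 7219.1 normalised counts (SD, n = 4 each; DESeq2 adjusted p = 0.00244). Of 8 mast cell and basophil markers only 4 had an adjusted p, and these 4 fell. The median over all 8, those with very low counts included, was -1.02. Their sum was 26.3 to 52.8 CPM in naive and 17.6 to 29.5 in DMM libraries. None of the markers in the 9 cell type lists was at 0 in all libraries. The part of these cell types in the fall of the 7 genes was not tested.

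Few markers of the other cell types were called lower. Of all genes tested, 5.92% were called lower and 7.75% higher. Among the osteoclast markers, as among the stem and progenitor markers, 7 of 8 had an adjusted p. Of 9 macrophage markers 1 fell (Cd163, with a log2 fold change of -0.88), and the summed level was 656 to 775 CPM in naive and 635 to 779 in DMM libraries. Of 9 endothelial markers 5 were called higher, with a sum of 272 to 354 CPM in naive and 443 to 524 in DMM libraries, and of 8 osteoclast markers 1 was called higher (753 to 1164 against 934 to 1615 CPM). None of 9 B cell markers (225 to 321 against 273 to 600 CPM) and none of 8 stem and progenitor markers (85.5 to 113 against 96.9 to 122) was called by DESeq2. At an unadjusted p under 0.05, 2 B cell markers were higher, and 2 stem and progenitor markers were higher and 3 lower. By edgeR 0 and 1 of these markers were called, the latter lower.

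Within the DMM group the order of the libraries differed between the lists. Relative to the naive mean, DMM replicate 3 held 0.86 of the erythroid sum and 0.59 of that of the 7 genes, and DMM replicate 2 held 0.41 and 0.62. DMM replicate 4 held 0.80 of the neutrophil lineage sum and 0.50 of that of the 7 genes. Per 1000 erythroid counts the 7 genes had 20.5, 19.7, 22.9 and 25.5 counts in naive and 22.6, 32.7, 15 and 23.7 in DMM libraries, and the groups overlapped. Per 1000 neutrophil lineage counts they had 32.9, 31.5, 23.2 and 31.6 in naive and 35.3, 35.5, 23.1 and 18.3 in DMM libraries, which overlapped as well.

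**Figure D4:**
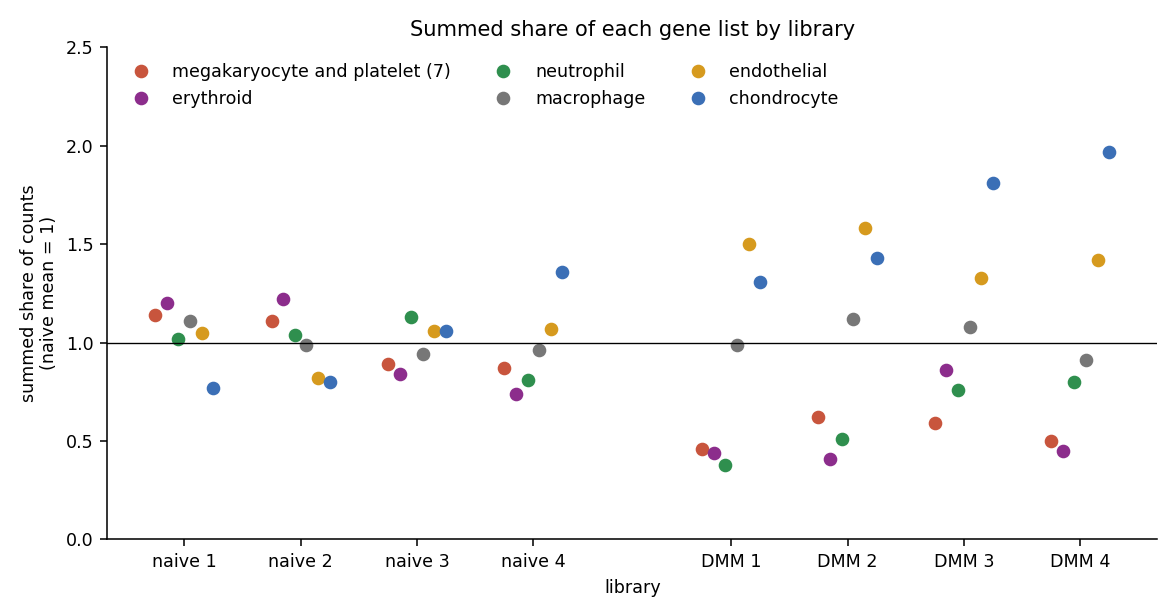
Summed share of counts of the 7 genes and of 5 marker lists in each library (y axis), relative to the naive mean of the same list. The 7 genes lie at 0.87 to 1.14 in naive and 0.46 to 0.62 in DMM libraries, while the erythroid list spans 0.41 to 0.86 and the chondrocyte list 1.31 to 1.97 in DMM libraries.

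The genes whose levels most resembled the average of the 7 within groups were found by Pearson's r over the 8 libraries after the group means were removed, among 13187 genes. The 5 highest were Gpr146 (r = 0.985, Spearman's rho = 0.83), P2rx1 (r = 0.983, rho = 0.83), Rab35 (r = 0.977, rho = 0.86), Cox6a1 (r = 0.968, rho = 0.71) and Iah1 (r = 0.964, rho = 0.88). P2rx1, the platelet ATP receptor gene, was the only one of these 5 called, and its log2 fold change was -0.91 (DESeq2 adjusted p = 0.00323). The other 4 had log2 fold changes between -0.33 and -0.04 and did not pass the test. Among the related genes the highest were Gfi1b, ranked 10 (r = 0.95), Itga2b, ranked 23 (r = 0.94), and Tubb1, ranked 61 (r = 0.90). These are descriptions over 8 libraries that share depth and scaling.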

How the data were processed

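RNA-seq was measured in 8 libraries of medial knee cartilage, 4 naive and 4 DMM. The deposited values are estimated counts per gene, which the authors made with Kallisto (pseudo-alignment) and tximport (gene sums) after Trimmomatic had trimmed the reads. Of these values 39.0% are not whole, since a read that fits several transcripts is divided. Totals ranged from 12479443 to 16548002 per library. The methods of the study name GRCm38 with an Ensembl release of a later assembly, and the labels list GRCh38 among the builds, so the build is uncertain. The labels and the methods name different library kits, and strand was not stated. Coordinates are from GENCODE vM21 on GRCm38, looked up by identifier.

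Estimated counts were rounded and tested with DESeq2 1.42.0 (R 4.3.3), with median-of-ratios size factors, no covariates and unshrunken fold changes. Alternatives were edgeR 4.0.16, TMM and total count scaling, filters on low counts, no fold threshold, the replicate number as a block and leaving out each library. Scripts were tested on simulated data. The test of ratios (SciPy 1.17.1) was added after the data were seen. The 7 genes and all lists were chosen with earlier results of these data known. Named were the 7 genes, every called related gene but 1 that is counted and not reported here, the 2 most abundant related genes of each list that were not called, the most abundant erythroid and neutrophil marker, and the 5 genes most alike in pattern (mean of at least 50 normalised counts, log2 of CPM plus 0.5). Fcer1g, Sept5, Gm49601, Cd163 and Mmrn1 were named after their values were seen.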

Additional observations from a re-analysis of the deposited data

Results flagged for a closer look

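None of the 7 megakaryocyte and platelet genes had a library far from the rest of its group by Dixon's test at the 95% level. Among related genes and lists 7 of 96 groups of 4 libraries did, and chance alone gives about 1 in 20, or 4.8 of 96. For single genes, Itgb3 was high in DMM replicate 4 at 3340 normalised counts against 3128 to 3155 in the other DMM libraries. Vwf was low in the same library at 1204 against 1623 to 1685, and Runx1 was high in naive replicate 4 at 2192 against 1930 to 1962. For summed lists, the intracellular signalling genes stood at 2416 CPM in DMM replicate 2 against 2099 to 2137 in the other DMM libraries. The erythroid list stood at 13121 in DMM replicate 3 against 6257 to 6935. The endothelial list stood at 272 in naive replicate 2 against 350 to 354 in the other naive libraries, and the mast cell and basophil list at 26.3 in naive replicate 4 against 49.5 to 52.8.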

How the results depend on the processing

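Pf4, Ppbp, Gp1ba, Gp9, Gp6 and Treml1 were called lower in each of the 14 other fits, the 8 that left out a library included, with adjusted p of at most 0.0105. Gp1bb was called in 4 of the 14, which were those without naive replicate 3, naive replicate 4 or DMM replicate 2 and that with the replicate block (log2 fold change -0.88, DESeq2 adjusted p = 0.00286). With the replicate number as a block 7 of the 7 genes and 18 of the 56 related genes were called. The numbers were not taken to pair the samples, since deviations of same-numbered libraries correlated at 0.06, 0.06, -0.1 and 0.12 over 18403 genes. Of the related genes 14 were called with total count scaling and between 15 and 25 with 1 library left out, against 19, and without the fold threshold 39 were, by the construction of that rule. Under total counts as size factors the median over all genes was 0.14 in place of -0.02. On that scale the values of the 7 genes ran from -0.99 (Ppbp) to -0.63 (Gp6), and their summed counts in DMM were 0.54 of those in naive. Of all genes tested, that scaling called 489 lower and 2030 higher, against 1052 and 1377. Leaving out 1 library put the summed ratio between 0.46 and 0.52. With 4 libraries per group the exact test of a single ratio cannot go below 0.0286, so the absence of a ratio past the threshold after adjustment over 21 pairs says nothing of stability.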

Other observations

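Mmrn1, which encodes multimerin 1, a protein of platelet alpha granules and endothelial cells, was the related gene with the widest error. It had 436, 0, 726 and 327 normalised counts in naive replicates 1 to 4 and 296, 246, 403 and 272 in DMM replicates 1 to 4 (DESeq2 adjusted p = 0.914). Its log2 fold change was -0.29 with a standard error of 1.32. With 1 library left out the value ran from -0.70 to 0.26, and Mmrn1 was called lower in 1 of these fits. Naive replicate 2, where it was listed at 0, held between 180.9 (Gp9) and 2365.4 (Ppbp) normalised counts of each of the 7 megakaryocyte and platelet genes. This gene was picked out after its values were seen.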
